A study of Mus musculus with 12 samples.

Results

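The genes described here encode the folding and export machinery of the endoplasmic reticulum (ER), in cells sorted as PDGFRα+, a mesenchymal marker, from skeletal muscle and bone of female mice. In bone, 6 erythroid markers held 58.6% of the summed levels in the authors' deposited table, and Pdgfra had a level of 8.60. A level there is the larger of the 2 group means, so this is not the share in each library. The ER genes were taken by gene symbol from a list of 46. It held ER chaperones, folding enzymes, translocon, signal peptidase and oligosaccharyltransferase subunits, COPII coat proteins, KDEL receptors and regulators of the unfolded protein response. Of these, 45 were found by name among the 25655 genes of each of the authors' 2 deposited tables. The stress gene Ddit3 was listed under the names Ddit3_1 and Ddit3_2 and is described apart from the 45. A p-value was given for 45 members in muscle and 44 in bone, and an FDR, the p-value adjusted for the number of genes, for 44 members in each tissue. Sec23a was listed at 0 in bone and had no p there, and Sdf2l1 had no FDR in muscle.

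The series held 12 samples in 4 groups of 3, a control and an Esr1 knockout group in each tissue. Esr1 encodes estrogen receptor alpha. The knockout mice of both tissues were labelled PDGFRα-CreER;Esr1flox/flox, with 2 floxed Esr1 alleles and a Cre recombinase whose activity depends on tamoxifen. Muscle control replicates 1 and 2 and bone control replicates 2 and 3 were PDGFRα-CreER without a floxed allele, muscle control replicate 3 was PDGFRα-CreER;Esr1flox/+, and bone control replicate 1 was Esr1flox/flox with no Cre. The Cre was therefore shared by every sample except bone control replicate 1. Neither the age of the mice nor the tamoxifen schedule is given in the labels. PDGFRα is expressed by mesenchymal cells of many organs, so a Cre under this promoter is not confined to the tissue that was sampled. The sort from either tissue kept PDGFRα+ cells without CD45, the leukocyte antigen, or CD31, the endothelial one, and the muscle sort left out Vcam1+ cells too. In bulk samples of this kind, fewer cells of a type and less RNA per cell cannot be told apart.

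Proteins bound for secretion or for the cell surface enter the ER through the Sec61 channel, lose their signal peptide, receive sugar chains and are folded by chaperones before COPII vesicles carry them to the Golgi. When unfolded protein builds up, the sensors IRE1, PERK and ATF6 start the unfolded protein response, which raises chaperone and transport genes through the transcription factors XBP1, ATF4 and ATF6. Fibroblasts and osteoblasts depend heavily on this machinery because they export large amounts of procollagen.

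Every fold change, p, FDR and level of a gene below is a value of the authors' deposited table for that tissue. Fold changes are log2 values of knockout over control, so a positive value is higher in the knockout. A level is the larger of the 2 group means, on a scale that the table does not name, and whether it is per transcript length is not stated. Values per sample could not be given, because the columns per library carry codes that match no sample label. Where an approximate 95% interval is given, it was computed here from the fold change and its p with a normal approximation. It describes the uncertainty of the fold change under the authors' test and does not measure the spread between replicates. Control replicates of different genotype within a tissue came from different mice, but nothing in the labels says so of the replicates that share a genotype, whose spread may be technical.

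The targeted gene itself, Esr1, had a fold change of 1.02 (p = 0.404) at a level of 45.6 in muscle and -2.69 (p = 0.245) at 75.9 in bone in the authors' deposited table. Neither passed a test, and in muscle the sign is opposite to that of a loss. The libraries read the 3' end of transcripts and the labels do not name the floxed exon, so this value does not check the genotypes.

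Several members carry in their promoters the sequence elements through which the unfolded protein response is known to act. These are shown because the shared letters group some members by a feature other than their expression. The ER stress element reads CCAAT, then any 9 bases, then CCACG, and is bound by ATF6 and XBP1 together with NF-Y. A RefSeq promoter (GRCm38.p6, 250 bases before to 50 after the start site) was found for 36 of the listed genes, Ddit3 among them. Of these 36, 6 held the element on either strand, or 16.7%, against 0.137% of all 27025 genes with a promoter. The shorter ER stress element II, ATTGG, any 1 base, CCACG, was in 2 members (5.56%, against 0.0444% of genes). The unfolded protein response element TGACGTGG was in 3 members (8.33%, against 0.714% of genes). The amino acid response element TGATGCAAT, known from ATF4 targets, was in 0 of the 36 listed genes and in 0.222% of genes. An estrogen response element, GGTCA and TGACC around any 3 bases, was in 0 members and in 0.0740% of genes. These counts describe exact matches in the window and were not tested. The list was chosen to include genes of the unfolded protein response, so a share above that of all genes is not an independent result. CCACG occurs in both ER stress elements and, reversed, in part of the unfolded protein response element.

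Matches that lie before the start site are printed 5′ to 3′ on the strand of the gene with the element in capitals. Positions are counted from 0 at the RefSeq start site. The Hspa5 run, at chr2:34772020-34772048 on the plus strand, holds the element at -65 to -47. The Hsp90b1 runs, at chr10:86705618-86705676 and chr10:86705513-86705571 on the minus strand, hold it at -212 to -194 and, reversed, at -107 to -89. The Calr run, at chr8:84847055-84847113 on the minus strand, holds it reversed at -162 to -144. Canx, at chr11:50325780-50325838 on the minus strand, has it at -145 to -127, and Dnajc3, at chr14:118937807-118937865 on the plus strand, at -105 to -87. Pdia6, at chr12:17266471-17266529 on the plus strand, has it at -98 to -80. The Herpud1 run, at chr8:94386357-94386407 on the plus strand, holds the ER stress element II at -52 to -42. The Sec24d run, at chr3:123267465-123267482 on the plus strand, holds the unfolded protein response element at -26 to -19, and the Kdelr3 run, at chr15:79516358-79516405 on the plus strand, holds it reversed at -30 to -23.
Hspa5: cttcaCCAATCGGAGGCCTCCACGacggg
Hsp90b1, distal: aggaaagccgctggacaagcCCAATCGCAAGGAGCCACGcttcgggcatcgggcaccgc
Hsp90b1, proximal: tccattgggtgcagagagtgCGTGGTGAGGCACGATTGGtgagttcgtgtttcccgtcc
Calr: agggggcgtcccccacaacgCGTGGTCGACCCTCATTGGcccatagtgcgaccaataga
Canx: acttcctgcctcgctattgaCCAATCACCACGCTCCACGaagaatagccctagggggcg
Dnajc3: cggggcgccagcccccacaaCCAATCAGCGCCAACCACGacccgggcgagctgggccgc
Pdia6: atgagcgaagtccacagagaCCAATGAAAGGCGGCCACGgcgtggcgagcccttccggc
Herpud1: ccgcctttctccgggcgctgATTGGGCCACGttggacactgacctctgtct
Sec24d: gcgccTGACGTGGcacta
Kdelr3: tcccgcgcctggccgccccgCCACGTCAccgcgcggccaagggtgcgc

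The other matches, in Dnajb11 (ER stress element II, at 7 to 17) and Sec23a (unfolded protein response element, at 6 to 13), lie after the start site and are not printed.

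**Figure D1:**
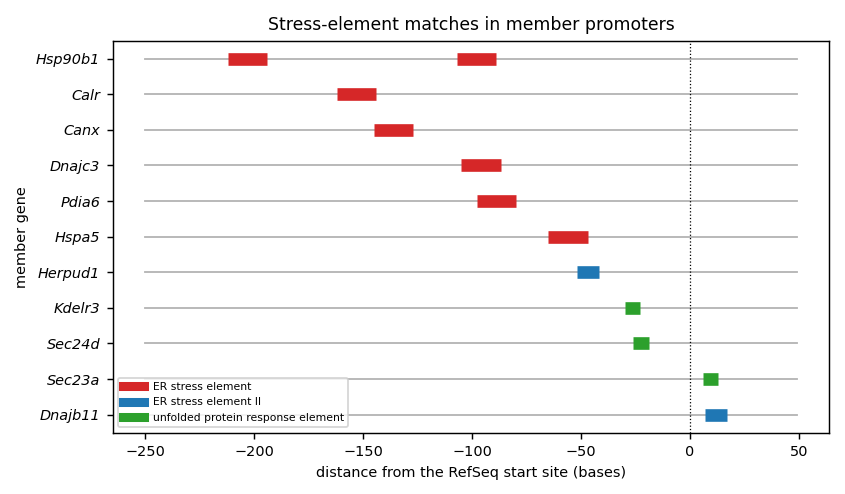
Position of each exact match in the promoters of the 11 members that hold one, as distance in bases from the RefSeq start site (x axis, 0 at the dotted line), with the grey line marking the window searched. The ER stress element matches lie between -212 and -47, and Hsp90b1 is the member with a pair of them.

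In muscle, no ER gene was called changed in knockout cells, and most fold changes were small. The fold changes of the 45 members ran from -0.99 to 1.53, with 43 of them between -1 and 1 and a median of 0.26. Of the 44 members with an FDR, 0 had an FDR under 0.05 in the authors' deposited table, where 0.127% of all genes with an FDR passed. At an unadjusted p under 0.05 the count was also 0 of 45, against 11.7% of all 13158 genes with a p. In all, 31 members (68.9%) were higher and 14 lower in the knockout, against 53.5% of all genes higher with a median of 0.12. Within the 30 members with a level above 100, 20 were higher and the median was 0.20. Of the 1615 genes at such levels, 49.97% were higher and 8.05% had a p under 0.05.

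**Figure D2:**
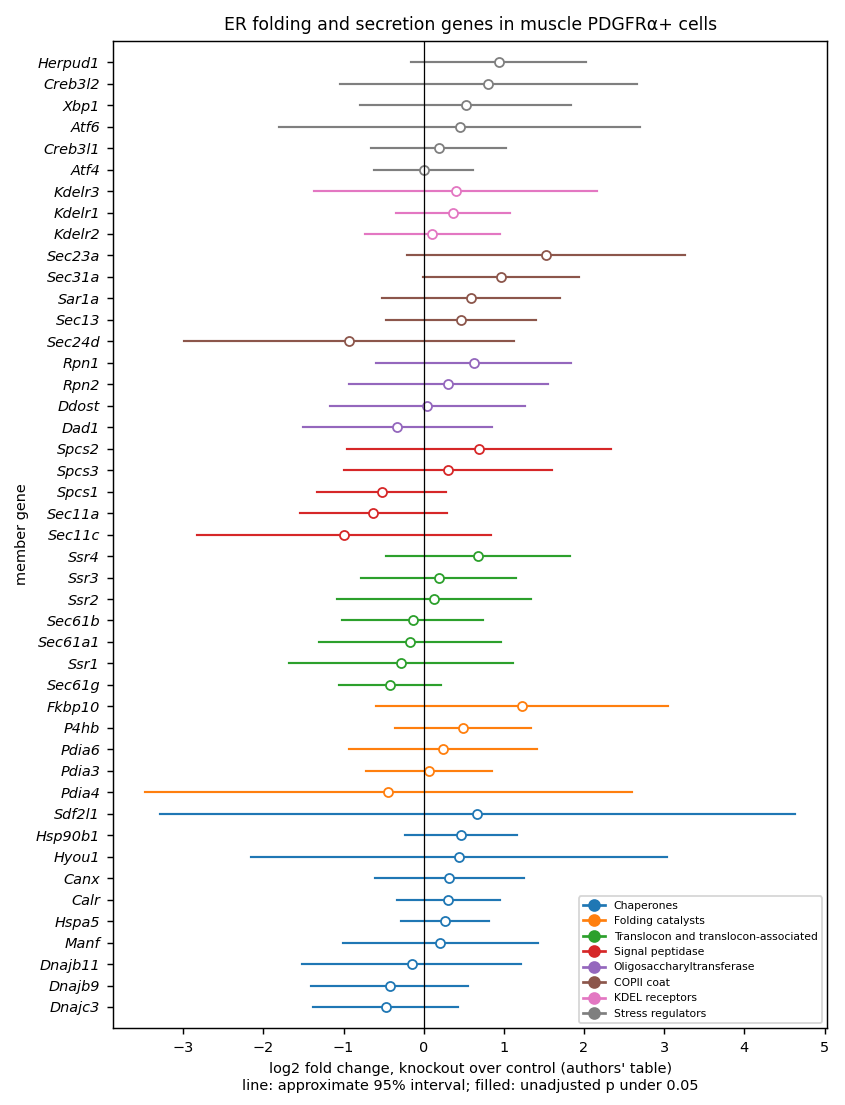
Log2 fold change of knockout over control for each member in muscle (x axis), grouped and coloured by role, with points from the authors' deposited table and lines giving the approximate 95% interval. Every interval includes 0, and Sec31a, at 0.97, comes nearest to leaving it.

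The chaperones, which hold and fold entering chains, had 7 of 10 members higher in muscle and a median fold change of 0.28. Hspa5 (ENSMUSG00000026864, chromosome 2, 34771970 to 34777547 on GRCm38) encodes BiP, the main chaperone of the lumen and the protein that holds the stress sensors inactive. It had the highest level of the members in the authors' deposited table, 2247, and a fold change of 0.26 (p = 0.350), with an approximate interval from -0.29 to 0.81. Hsp90b1, the ER form of HSP90, had 0.47 (p = 0.187) at a level of 474 in the authors' deposited table. The lectin chaperones calreticulin (Calr) and calnexin (Canx), which bind sugar-bearing chains, had 0.31 and 0.32 (p = 0.347 and 0.495) in the authors' deposited table. All of these intervals include 0. The J-domain partners of BiP among the members had the opposite sign. Dnajc3, an inhibitor of the PERK branch as well as a co-chaperone, had -0.47 (p = 0.303), Dnajb9 -0.43 (p = 0.393) and Dnajb11 -0.15 (p = 0.831) in the authors' deposited table. Sdf2l1, which works with Dnajb11, had 0.67 at a level of only 5.19, and its approximate interval ran from -3.29 to 4.63. Hyou1, which reloads BiP with ATP, had 0.44 and Manf, a small secreted stress protein, 0.21.

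Among the folding catalysts, 4 of 5 were higher in muscle and the median was 0.24. Fkbp10, a prolyl isomerase that folds procollagen and is mutated in brittle bone disease, had the second largest fold change of the members, 1.23 (p = 0.185), at a level of 70.6 in the authors' deposited table. P4hb, which forms disulfide bonds and is also a subunit of the collagen prolyl hydroxylase, had 0.49 (p = 0.260) at a level of 337 in the authors' deposited table. The related disulfide isomerases Pdia3, Pdia6 and Pdia4 had 0.06, 0.24 and -0.44 (p = 0.874, 0.691 and 0.776) in the authors' deposited table. The Pdia3 interval, -0.72 to 0.85, lay within a log2 change of 1 in either direction, while that of Pdia4, at a level of 24.0, ran from -3.47 to 2.59.

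The translocon and the signal peptidase leaned the other way in muscle, without passing a test. Of 7 translocon members, which form the Sec61 channel and its associated TRAP complex, 3 were higher and 4 lower, with a median of -0.14. The channel subunits Sec61a1, Sec61b and Sec61g had -0.17, -0.14 and -0.42 (p = 0.768, 0.755 and 0.201) in the authors' deposited table. The TRAP subunits Ssr1 to Ssr4 had -0.29, 0.13, 0.19 and 0.67 (p = 0.685, 0.829, 0.706 and 0.249) in the authors' deposited table. Sec61g and Sec61b are uncertain, because at least 100 of the last 250 bases of their transcripts match 3 other annotated genes each at 95% identity or more. Of 5 signal peptidase members 2 were higher, with a median of -0.53. Its catalytic subunits Sec11a and Sec11c had -0.63 (p = 0.178) and -0.99 (p = 0.288) in the authors' deposited table, the accessory subunit Spcs1 -0.53 (p = 0.198), and Spcs2 and Spcs3 0.69 and 0.31 (p = 0.413 and 0.646). The sign therefore differed within the complex. Spcs2 and Dnajb9 also share their transcript ends with 1 other gene each.

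Among the oligosaccharyltransferase subunits, which attach the N-linked sugar, Rpn1, Rpn2 and Ddost had 0.62, 0.31 and 0.05 and Dad1 -0.33 (p = 0.315, 0.628, 0.941 and 0.585) in the authors' deposited table. The KDEL receptors, which return escaped chaperones from the Golgi, had 0.36 for Kdelr1, 0.11 for Kdelr2 and 0.40 for Kdelr3 (p = 0.319, 0.801 and 0.659) in the authors' deposited table. All 3 values were positive and none exceeded its own approximate standard error, 0.36, 0.43 and 0.90 in the same order.

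The COPII coat held the members with the smallest p in muscle. Sec31a (ENSMUSG00000035325, chromosome 5, 100361649 to 100416234 on GRCm38), part of the outer cage of the vesicle, had a fold change of 0.97 (p = 0.0517, FDR = 0.825) at a level of 242 in the authors' deposited table. Its approximate interval was -0.01 to 1.94. Sec23a (ENSMUSG00000020986, chromosome 12, 58958383 to 59012017), an inner coat subunit needed for collagen export, had 1.53 (p = 0.0846, FDR = 0.950) at a level of 77.8 in the authors' deposited table, the largest fold change of the members. Sar1a, the GTPase that starts coat assembly, had 0.59 (p = 0.297), Sec13 0.46 (p = 0.331), and the cargo adaptor Sec24d -0.93 (p = 0.376) in the authors' deposited table. The coat as a group thus had 4 of 5 members higher, a median of 0.59, and none past the test.

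Of the stress regulators found by name, 5 of 6 were higher in muscle, with a median of 0.49. Herpud1 (ENSMUSG00000031770, chromosome 8, 94386438 to 94395377), a membrane protein of ER-associated degradation, had 0.93 (p = 0.0952, FDR = 0.969) at a level of 163 in the authors' deposited table. Xbp1 had 0.52 (p = 0.435), Atf6 0.45 (p = 0.695) and the collagen-linked factors Creb3l1 and Creb3l2 0.19 and 0.81 (p = 0.662 and 0.394) in the authors' deposited table. Atf4, whose activity is set mostly by translation of its mRNA, had -0.002239 (p = 0.994) at a level of 579 in the authors' deposited table. Its approximate interval, -0.63 to 0.62, is among the narrow ones. Ddit3_1 (ENSMUSG00000025408), the row for the pro-apoptotic factor CHOP, had 1.26 (p = 0.296) at a level of 43.2 in the authors' deposited table, and the overlapping row Ddit3_2 was listed at 0 in both tissues.

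Precision differed between members. The intervals of only 5 muscle members (Atf4, Calr, Hspa5, Kdelr2 and Pdia3) lay between -1 and 1, and those of the other 40 reached past one of these bounds, so a log2 change of 1 was not excluded in them. The approximate standard error of the members had a median of 0.58 and ran from 0.28 for Hspa5 to 2.02 for Sdf2l1, against a median of 1.91 over all genes with a p.

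A second list of 71 further ER genes, none of them members, gave the wider pathway. In muscle 68 had a p, of which 44 (64.7%) were higher with a median of 0.26. None passed an FDR of 0.05, and 6 had an unadjusted p under 0.05, 5 higher and 1 lower, beside the 11.7% of all genes. The higher genes were Wfs1, an ER membrane protein (8.58, p = 0.00528), Ganab, a glucosidase that trims N-linked sugars (1.67, p = 0.00618), Srp72, a subunit of the signal recognition particle (3.13, p = 0.00745), Derl1, part of the retrotranslocation channel (1.58, p = 0.0159), and the vesicle cargo receptor Tmed2 (1.03, p = 0.0361), all in the authors' deposited table. The lower gene was Bet1, a vesicle fusion protein (-1.63, p = 0.0492 in the authors' deposited table). Their FDR ran from 0.305 to 0.814. Wfs1 had a level of 18.7, and its approximate interval was wide, from 2.55 to 14.6. The PERK and IRE1 sensor genes Eif2ak3 and Ern1 had -0.89 and -1.13 (p = 0.599 and 0.556) in the authors' deposited table. The COPII genes beside the members gave Sec23b -0.95, Sar1b -1.21, Sec24a 1.06, Sec24b -0.04 and Sec24c -0.13, none with a p under 0.05 in the authors' deposited table.

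Markers of cell types were read in the same muscle table. All 8 mesenchymal markers were present and higher, with a median of 0.62, and Col1a2 passed the FDR (1.27, FDR = 0.00261, level 5710 in the authors' deposited table). Pdgfra had a level of 494. The 4 endothelial markers had levels from 0.302 (Cdh5) to 21.97 (Tek), with Pecam1 at 3.19, and Kdr had a fold change of 7.88 (p = 0.0130) at a level of 11.9 in the authors' deposited table. The 5 macrophage markers had levels from 0.781 for the leukocyte gene Ptprc to 61.4 for Lyz2, with 3 of 5 higher and none with a p under 0.05. Of the neutrophil markers with a p, 3 of 4 were lower, and S100a8 had -5.46 (p = 0.0163) at 17.3 in the authors' deposited table. Among genes of muscle cells, Myod1 had -7.75 (p = 0.0163) at 10.3 in the authors' deposited table, and Pax7 was listed at 0. Vcam1, whose protein the gate excluded, had a level of 53.7. The erythroid markers with a p were lower, 5 of 5, with a median of -0.99. The part of these shifts in the ER values was not tested. Plasma cell genes, which would bring much ER transcript, were low, with Jchain and Mzb1 listed at 0 and Sdc1 at 26.5.

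In bone, several ER genes had very high fold changes in knockout cells, yet none was called at an FDR of 0.05. Of 44 members with an FDR, 0 passed in the authors' deposited table, where 0.0352% of all genes with an FDR did. Fold changes ran from -5.66 to 10.70, with 27 members (61.4%) higher, 17 lower and a median of 0.49. All genes with a p leaned further, 69.7% higher with a median of 2.51, so 36 of the 44 members were at or below the median gene. At an unadjusted p under 0.05 there were 8 members (18.2%), against 33.0% of all genes. All 8 were higher, as were 28.8% of all genes with a p that passed in this direction. At an FDR under 0.1 there were 7 members (15.9%), against 32.2% of genes. The members thus stood below the share of the whole table under the rules looser than an FDR of 0.05. These shares were not matched for level, and the share of genes with a p under 0.05 fell with level, as given below.

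**Figure D3:**
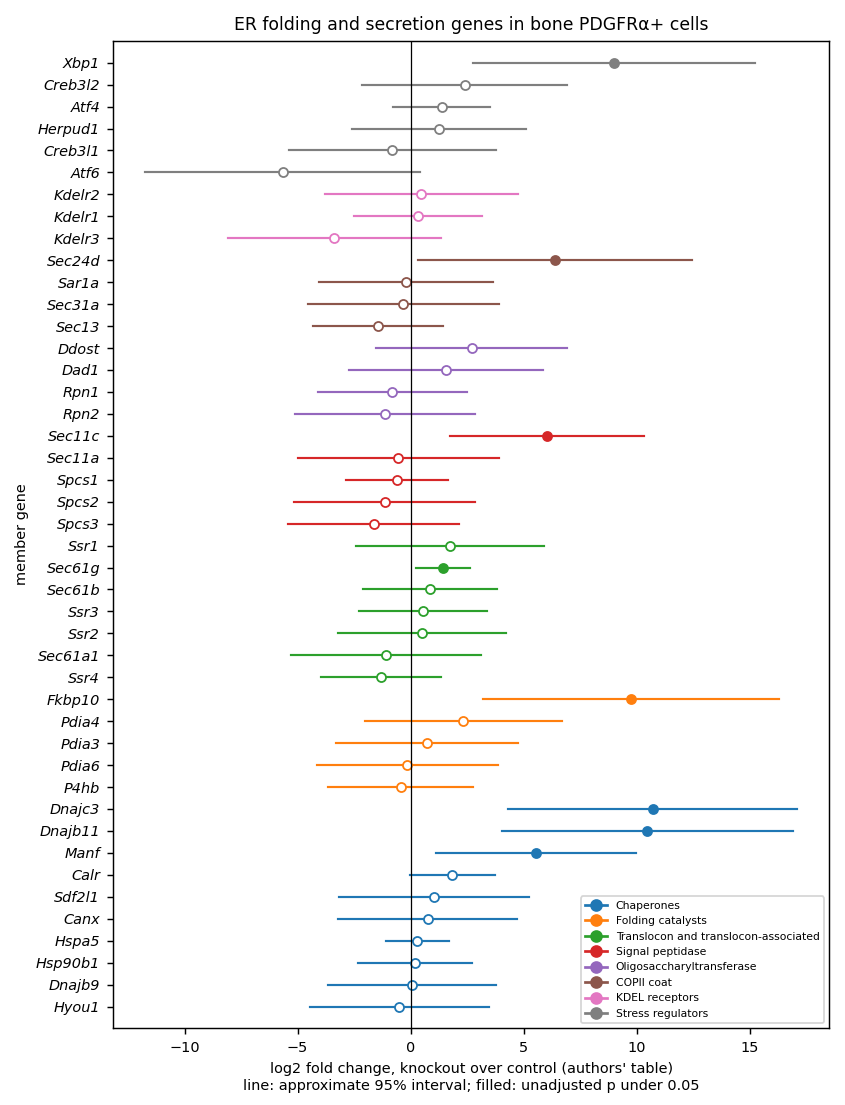
Log2 fold change of knockout over control for each member in bone (x axis), grouped and coloured by role, with points from the authors' deposited table, lines giving the approximate 95% interval and filled points marking an unadjusted p under 0.05. The 8 filled points are all to the right of 0, and the intervals are wider than in muscle.

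The chaperone group had 9 of 10 members higher in bone, with a median of 0.89, led by the BiP partners. Dnajc3 (ENSMUSG00000022136, chromosome 14, 118937976 to 118981697 on GRCm38) had a fold change of 10.70 (p = 0.00101) at a level of 45.2 in the authors' deposited table. Dnajb11 (ENSMUSG00000004460, chromosome 16, 22857845 to 22879634) had 10.47 (p = 0.00142) at a level of 37.2 in the authors' deposited table. Manf had 5.53 (p = 0.0140, FDR = 0.0805) at a level of 22.02 in the authors' deposited table. The remaining J-domain partner among the members, Dnajb9, was near 0 with 0.06 (p = 0.975) at a level of 40.9 in the authors' deposited table. The abundant chaperones were close to 0 as well: Hspa5 had 0.29 (p = 0.687) at a level of 424 and Hsp90b1 0.19 (p = 0.882) at 116 in the authors' deposited table. Calr had 1.85 (p = 0.0541) at a level of 198 in the authors' deposited table, with an approximate interval of -0.03 to 3.73. The remaining chaperones Canx, Sdf2l1 and Hyou1 had 0.75, 1.04 and -0.52 (p = 0.712, 0.629 and 0.799) in the authors' deposited table.

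The other members with a p under 0.05 in bone came from different steps of the pathway. Fkbp10 (ENSMUSG00000001555, chromosome 11, 100415697 to 100424824) had 9.75 (p = 0.00356) at a level of 24.7 in the authors' deposited table. Xbp1 (ENSMUSG00000020484, chromosome 11, 5520659 to 5525893), the factor that IRE1 activates by splicing its mRNA, had 8.998 (p = 0.00476) at a level of 13.1 in the authors' deposited table. Sec11c had 6.03 (p = 0.00577) at a level of 44.9, Sec24d 6.37 (p = 0.0392, FDR = 0.108) at 2.22, and Sec61g 1.42 (p = 0.0189, FDR = 0.0834) at 1020 in the authors' deposited table. Sec61g was the only one of the 8 with a fold change under 5 and a level above 100, and its reads may be shared with near-identical copies. Dnajc3, Dnajb11, Fkbp10, Xbp1 and Sec11c shared an FDR of 0.0784 with 1253 genes in all, so this value does not rank them. Ddit3_1, outside the 45, had 10.91 (p = 0.000797, FDR = 0.0784) at a level of 52.8 in the authors' deposited table.

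The size of most of these values followed the level of the gene. For Dnajc3, Dnajb11, Fkbp10, Xbp1 and Sec24d, the log2 fold change minus the log2 of the level was 5.204, 5.25, 5.12, 5.28 and 5.22, and for Ddit3_1 it was 5.19. These genes therefore lie on the upper edge of the table, along which the fold change follows from the level almost entirely. Of 3596 bone genes with a fold change above 5 (34.2% of all with a p), 65.6% had a difference between 5 and 5.5, a band chosen after the plot was seen. Of the members, 7 (15.9%) had a fold change above 5, and 5 of them were in the band. Sec11c and Manf were not, with differences of 0.55 and 1.07. The mean of the other group is not in the table. If the fold change is a ratio of the group means, that mean was very small and nearly the same for all genes on the edge. Their fold changes then say little beyond the level in the higher group. Whether the fold change is such a ratio is not stated, so the mean is not given as a value.

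**Figure D4:**
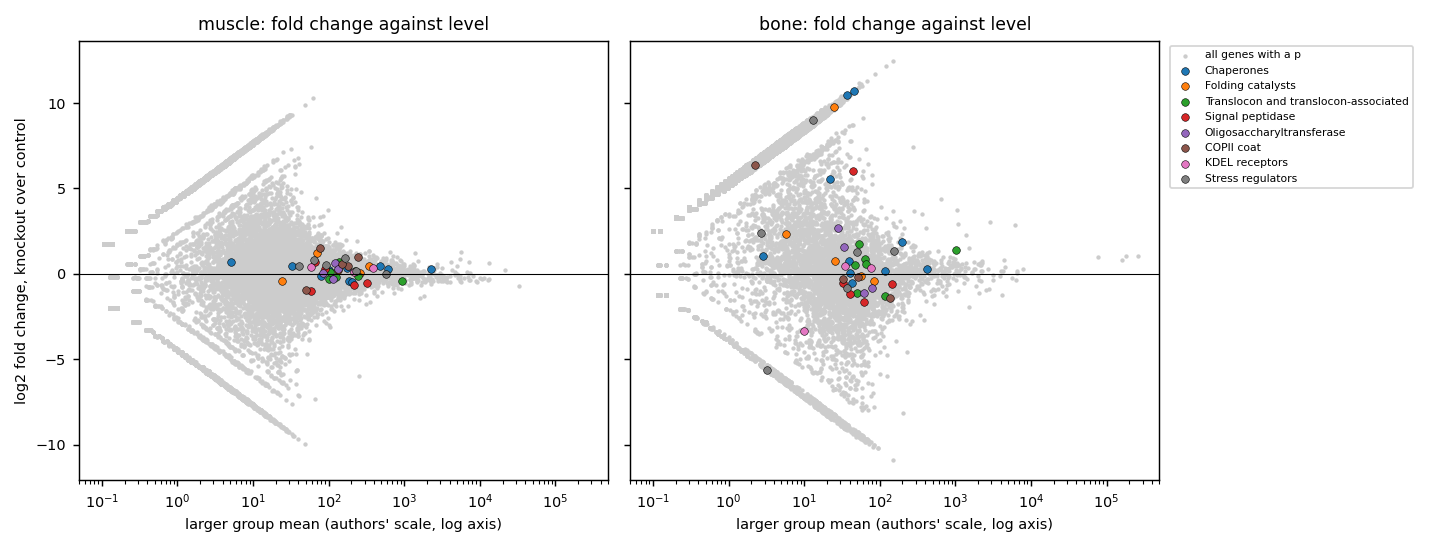
Log2 fold change (y axis) against the larger group mean (x axis, log scale, authors' unit) in muscle and bone, with all genes that have a p in grey and the members coloured by role. In muscle the members lie near 0 at levels from 5.19 to 2247, and in bone 5 of them lie on the upper diagonal edge.

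The background changed with level, and the members are best read within it. In bone, at levels above 10 up to 50, 6 of 20 members (30.0%) had a p under 0.05, against 34.0% of 3410 genes, and 14 were higher, against 58.7% of genes. At levels above 50 up to 100, 0 of 11 members had a p under 0.05 and 4 were higher, against 9.84% and 38.3% of 915 genes. Above 100, 1 of 8 members had a p under 0.05 and 5 were higher, against 5.56% and 51.6% of 738 genes. At levels up to 10, 1 of 5 members had a p under 0.05, against 40.0% of genes. With the adjustment made over genes with a level of at least 10, 5 members (12.8% of 39) passed at 0.05, against 14.1% of genes. These were Dnajb11, Dnajc3, Fkbp10, Sec11c and Xbp1, which shared a Benjamini-Hochberg adjusted p of 0.0499, just under the threshold. The level is the larger group mean, so these 5 met the filter through the knockout group, where they were higher. The filter is therefore not independent of the fold change, and no conclusion is drawn from this count.

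Most of the secretory machinery did not pass in bone and had both signs. Among the folding catalysts Pdia4, Pdia3, Pdia6 and P4hb had 2.33, 0.73, -0.15 and -0.45 (p = 0.294, 0.723, 0.942 and 0.786) in the authors' deposited table. Among the translocon genes 5 of 7 were higher, with a median of 0.55. Ssr1 had 1.75, Sec61b 0.86, Sec61a1 -1.09 and Ssr4 -1.30 (p = 0.408, 0.570, 0.611 and 0.337) in the authors' deposited table. In the signal peptidase, 4 of 5 members were lower and Sec11c alone was higher. Its sister catalytic subunit Sec11a had -0.54 (p = 0.810), and Spcs1, Spcs2 and Spcs3 had -0.60, -1.15 and -1.64 (p = 0.598, 0.571 and 0.395) in the authors' deposited table. The 2 catalytic subunits thus had opposite signs, which was not tested as a difference.

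The oligosaccharyltransferase genes also divided, with Ddost at 2.69 and Dad1 at 1.56 and Rpn1 and Rpn2 at -0.80 and -1.12 (p = 0.211, 0.478, 0.632 and 0.580) in the authors' deposited table. Of the COPII genes, Sec13, Sec31a and Sar1a had -1.43, -0.32 and -0.20 (p = 0.330, 0.881 and 0.920) in the authors' deposited table, and Sec24d alone was higher. Kdelr3 had -3.37 (p = 0.162) at a level of 10.01, with Kdelr1 and Kdelr2 at 0.33 and 0.46 (p = 0.821 and 0.832) in the authors' deposited table. Among the stress regulators beside Xbp1, Atf4 had 1.36 (p = 0.212) at a level of 156, Herpud1 1.25 (p = 0.525), Creb3l2 2.40 (p = 0.301), Creb3l1 -0.82 (p = 0.727) and Atf6 -5.66 (p = 0.0681) at a level of 3.24 in the authors' deposited table. Atf6, the sensor of a separate branch, was the member with the lowest fold change. The approximate standard errors in bone had a median of 2.04, and no member had an interval between -1 and 1, so a log2 change of 1 was not excluded for any of the 44. Above a level of 100, the median standard error was 1.12 for 8 members in bone and 0.47 for 30 members in muscle. These sets differ and the level scales were normalized separately, so levels were not matched.

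Members with an ER stress element of either kind were set beside those without, with Ddit3 left out. In muscle, 6 of 8 were higher with a median of 0.28, against 17 of 27 and 0.31 for the members whose promoter held none. In bone, 7 of 8 were higher with a median of 1.00, against 15 of 26 and 0.44, and 2 of 8 against 3 of 26 had a p under 0.05. Of all bone genes with a p, 69.7% were higher, with a median of 2.51, and 33.0% had a p under 0.05. The 2 members, Dnajc3 and Dnajb11, both lie on the upper edge described above. The bone values of the 8 ran from -0.15 for Pdia6 to 10.70 for Dnajc3, so members that share an element had values both near 0 and at the top of the list. The difference was not tested.

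Of the 71 further ER genes, 63 had a p in bone and 43 (68.3%) were higher, with a median of 0.74. None passed an FDR of 0.05, and 15 had a p under 0.05, 14 higher and 1 lower, beside the 33.0% of all genes and the 28.8% in the higher direction. The 6 of smallest p were Srp72 (9.27), the asparagine synthetase gene Asns, a target of ATF4 (6.65), Sel1l, a scaffold of ER-associated degradation (6.73), Mia3, the procollagen export receptor TANGO1 (8.86), Srp14 (5.72) and Fkbp14 (8.16), with p from 0.00388 to 0.0119 in the authors' deposited table. Their levels were 17.4, 11.01, 11.6, 12.1, 57.7 and 6.91 in the same order. All 6 fold changes were above 5, where 65.6% of bone genes lay in the band of the upper edge. The difference between fold change and level was not computed for the 6. Srp14 lay well under the edge, where Ddit3_1 had 10.91 at a level of 52.8. Asns and Sel1l also lay under it, where Xbp1 had 8.998 at a level of 13.1. For Srp72, Mia3 and Fkbp14 the size may follow largely from the level. Among other PERK and ATF4 genes, Ppp1r15a had 0.25 (p = 0.709) at a level of 493 and Chac1 0.54 (p = 0.799986) in the authors' deposited table, and Trib3 was listed at 0. Ern1, Eif2ak3 and Wfs1 were also listed at 0 in bone. Sec16a, an organizer of ER exit sites, was the lower gene, with -5.42 (p = 0.0227) in the authors' deposited table.

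Markers of blood cells were among the genes with high values in the same bone comparison. The background was high there too: 69.7% of all genes with a p were higher, with a median of 2.51, and 33.0% had a p under 0.05. The 6 erythroid markers held 58.6% of the summed levels of the table, against 0.317% for the 45 ER members. All 6 were higher in the knockout, with a median of 0.91 and 0 with a p under 0.05. Their levels are thus knockout means, and the share in the controls is not given. Stromal genes were present, with Col1a1 at 688 and Dcn at 674. Neutrophil markers were higher, 7 of 7 with a median of 2.92, and Ltf passed the FDR (7.45, FDR = 0.000229 in the authors' deposited table). Macrophage markers were higher, 5 of 5 with a median of 3.9998, and 3 had a p under 0.05. These were Csf1r (7.91) and Adgre1 (8.24), at levels of only 5.93 and 8.31, and Lyz2 (2.28) at 1399. Of the plasma and B cell markers with a p, 4 of 5 were higher. Jchain, the joining chain of secreted antibodies, had 10.19 (p = 0.00247) at a level of 29.6, Mzb1, an ER protein of plasma cells, had 6.49 (p = 0.0404) at 2.33, and Sdc1 had -1.003 in the authors' deposited table, with Ighm and Igkc listed at 0. The mesenchymal markers had 4 of 8 higher, with Pdgfrb at 8.27 and Col1a1 at -1.07. Chondrocyte markers were lower, 4 of 4 with a median of -1.19 and none with a p under 0.05. Of the 6 osteoblast markers 4 were higher, with a median of 1.82. Those with a p under 0.05 were Bglap2, an osteocalcin gene (9.63, p = 0.00489), the transcription factor gene Runx2 (8.04, p = 0.0130) and the alkaline phosphatase gene Alpl (-3.95, p = 0.0160) in the authors' deposited table. Their levels were 16.85, 7.27 and 162 in the same order. The part of these cell types in the bone ER values was not tested, and the summed marker level in each group is not given here.

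The same members were set side by side in both tissues, whose tables come from different samples. Of 44 members with a p in both, 16 (36.4%) were higher in both, 3 (6.82%) lower in both, 14 (31.8%) higher in muscle and lower in bone, and 11 (25.0%) the reverse. Over all 9598 genes with a p in both, the shares were 37.3%, 14.0%, 16.4% and 32.3%. Fkbp10 had a positive value in both tissues, 1.23 and 9.75, of which the muscle value had a p of 0.185 and the bone value one of 0.00356 in the authors' deposited tables. Dnajc3 had -0.47 in muscle and 10.70 in bone, Sec11c -0.99 and 6.03, and Sec24d -0.93 and 6.37. Atf6 and Kdelr3 had the reverse pattern, with 0.45 and 0.40 in muscle and -5.66 and -3.37 in bone. Hspa5 was alike in size in the 2 tables, with 0.26 and 0.29. The difference between tissues was not tested for any member, and levels were not compared between the tables because they were normalized separately.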

How the data were processed

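Libraries were made with the QuantSeq 3' kit per the labels' protocols, and the build names GRCm38 and mm10 come from the submitters' processing notes. The names of the aligner, counter and test are not given in sources used here. The authors deposited log2 fold changes of knockout over control, with p-values (raw, FDR and Bonferroni). The group mean is used as a score, since its unit is not named in the file headers of the deposited tables. Each library has further columns, 48 in all, with 4 kinds of value for 12 libraries under codes that match no label. They were not used, so the depth per sample is not given and the planned edgeR test was replaced by the authors' comparison.

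Calls used an FDR under 0.05 as deposited by the authors. Recomputed Benjamini-Hochberg values over all genes with an FDR differed from the deposited ones by at most 0.000995 in muscle and 0.000142 in bone. The standard error is the fold change divided by the normal quantile of its two-sided p. This and the adjustment were tested on simulated data. Positions come from GENCODE M21 (GRCm38) by gene identifier, because the positions in the tables equal those of GRCm38 for only 1 of 45 members. Promoters come from RefSeq (GRCm38.p6), and 36 of the listed genes, with Ddit3, matched by symbol. Transcript ends (250 bases) were compared with BLAST 2.17.0, at 95% identity over at least 100 bases. A printed promoter run has 20 bases on each side of the element, or 5 where it lies in an annotated gene. Python 3.11.15, pandas 2.3.3, scipy 1.17.1 and statsmodels 0.14.6 were used.

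In each role group, members with a p under 0.05, the smallest p or the highest level were named, and further members were named with their values. Of the further ER genes, up to 6 of smallest p per tissue were to be named, and others named were chosen after their values were seen. The members and lists were chosen with earlier results of these data known.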

Additional observations from a re-analysis of the deposited data

How the results depend on the processing

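No paired analysis was possible because the columns carry no replicate numbers. For the same reason DESeq2, the setting without a filter on low counts, leaving out replicates and the replicate block were not run. In muscle the count of called members was 0 under all 6 alternative thresholds and filters. In bone it was 7 (15.9%, against 32.2% of genes) at an FDR under 0.1 and 8 (18.2%, against 33.0%) at an unadjusted p under 0.05. It was 5 when only genes at a group mean of 10 or more were adjusted, a filter those 5 met through the knockout mean. It was 0 under the Bonferroni p, the adjustment over every gene with a p, and adjusting only at group means of 50 or more. Among the further ER genes, 6 of 68 in muscle and 15 of 63 in bone had an unadjusted p under 0.05. The shares of all genes were 11.7% and 33.0%. In bone 13 of the further genes had an FDR under 0.1, where 32.2% of all genes with an FDR did. The muscle median of 0.26 was 0.25 over members with an FDR, 0.25 and 0.24 at group means of at least 10 and 50, and 0.14 after subtracting the median of all genes. The bone median of 0.49 was 0.33 at group means of at least 10 and reversed to -0.15 at 50 and to -2.03 after subtracting the median of all genes. The cause was not tested. Depth per library is not given here.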
